A study of Mus musculus with 11 samples.

Results

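The endothelial genes of the gastric mucosa were followed through 9 named genes of blood vessel endothelium, Pecam1, Cdh5, Kdr, Flt1, Tek, Tie1, Emcn, Vwf and Plvap, with Vegfa, a ligand made by epithelium, set beside them. The 10 genes were taken by name from the deposited table of 34866 genes, and all 10 were among the 14889 genes with enough counts to be tested. RNA of the corpus mucosa of mice was measured in 11 samples, each sequenced as a stranded poly(A) library. The samples were 2 wild-type controls and 3 of each engineered line, ATP4B-DTR, GIF-DTR or both (GIF/ATP4B-DTR). DTR is the usual abbreviation for the diphtheria toxin receptor, which makes mouse cells sensitive to that toxin. Atp4b encodes a subunit of the proton pump of parietal cells, and Gif encodes intrinsic factor, which mouse chief cells secrete. The series' design text states that the models were built to remove chief and parietal cells selectively. Toxin dose, time after toxin, age and sex are not given in the sources used here, nor whether the controls received toxin or whether the samples of a group came from separate animals, so p-values measure the spread between these samples. The controls carry numbers in the labels, and the samples of each line are numbered here in accession order.

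Levels are in CPM, counts per 1000000 counts of the library after TMM scaling. Library totals were between 20689167 and 27946310 counts, and the 3-count floor of a single library was between 0.107 and 0.166 CPM. Atp4b was 4786 and 4365 CPM in the controls, 475 to 683 CPM where ATP4B-DTR was carried alone, 2136 to 3470 CPM where GIF-DTR was, and 158 to 468 CPM where the 2 were combined. Gif was 702 CPM for control 1 and 2303 CPM for control 2, with 824, 332 and 755 CPM in ATP4B-DTR 1 to 3 (log2 change −1.24, edgeR adjusted p = 0.245), values from 65.5 to 196 CPM among GIF-DTR samples and from 72.3 to 218 CPM among GIF/ATP4B-DTR samples. Ddx3y, a Y-linked gene, was between 40.9 and 53.3 CPM in both controls, ATP4B-DTR 1 and the 3 GIF/ATP4B-DTR samples, and at most 0.0794 CPM in the 5 other samples. All 3 GIF-DTR samples were on the low side, so for that line sex and genotype cannot be told apart.

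Endothelial cells line every blood vessel. In the stomach the capillaries climb between the glands toward the surface, and many carry fenestrae closed by thin diaphragms. Vascular endothelial growth factor A, the product of Vegfa, binds the receptors VEGFR2 (Kdr) and VEGFR1 (Flt1), which are both largely restricted to endothelium, and endothelium depends on this signal for survival. A parallel system runs through TIE2 (Tek), the receptor of the angiopoietins, and its partner TIE1 (Tie1), which stabilise vessels. In a whole mucosa, fewer endothelial cells and less RNA per endothelial cell cannot be told apart.

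The 2 controls stood far apart in every endothelial gene. The summed level of the 9 genes was 22.8 CPM in control 1 and 141 CPM in control 2. The lines had sums of 21.5, 13.3 and 36.6 CPM for ATP4B-DTR 1 to 3, of 94.7, 35.2 and 49 CPM for GIF-DTR 1 to 3, and of 8.23, 20.6 and 13.4 CPM for GIF/ATP4B-DTR 1 to 3. The GIF-DTR sums and that of ATP4B-DTR 3 lay between the controls, and the other 5 lay below control 1. Control 2 exceeded control 1 by 3.30-fold (Plvap) to 16.4-fold (Tie1), with a median of 10.8-fold over the 9 genes and 0.909-fold over all tested genes. All 9 genes were at least 3-fold higher in control 2, against 9.9% of the tested genes. Control 2 was the highest of the 11 samples for 8 of the 9 genes. GIF-DTR 1 was second for those 8 and highest for Vwf, and GIF/ATP4B-DTR 1 was the lowest for 6. Of the 27 values of each line, 26 of GIF-DTR lay between the controls, as did 17 of ATP4B-DTR and 12 of GIF/ATP4B-DTR.

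**Figure D1:**
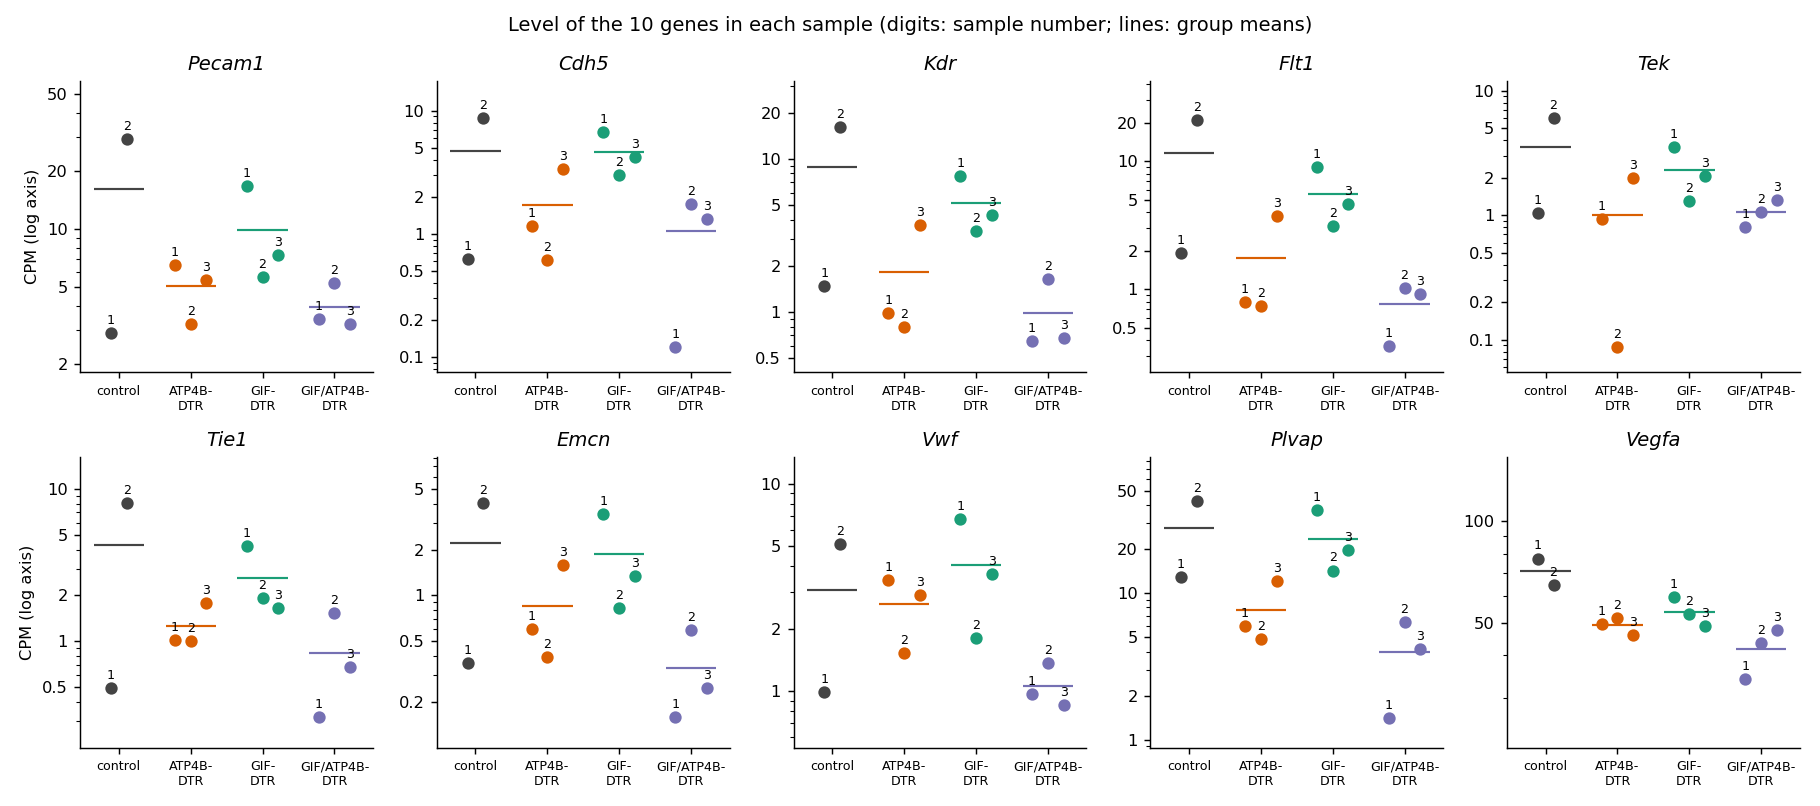
Level of each of the 10 genes in CPM on a log axis, 1 point per sample numbered within its group, with group means as lines; each panel has its own axis. Control 2 lies 3.30-fold to 16.4-fold above control 1 for the 9 endothelial genes and 0.836-fold of it for Vegfa.

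Genes of the other cell types of the vessel wall and stroma differed between the controls in the same direction. The summed level of control 2 over control 1 was 6.38-fold for 22 other pan-endothelial genes, 8.11-fold for pericyte and vascular mural genes, 5.99-fold for smooth muscle genes, 9.90-fold for fibroblast genes and 4.30-fold for leukocyte and macrophage genes. It was 0.659-fold for epithelial genes such as Epcam and Cdh1. Among genes of single epithelial cell types it was 0.940-fold for parietal cell genes but 2.24-fold for chief cell genes. The smooth muscle sum (Acta2, Myh11, Cnn1, Des and Tagln) was 318 and 1906 CPM in the 2 controls. For the 3 ATP4B-DTR samples the values were 436 to 1061 CPM, those of GIF-DTR 379 to 2184 CPM and those of GIF/ATP4B-DTR 229 to 544 CPM. The fibroblast sum was 54.5 and 539 CPM in the 2 controls. ATP4B-DTR 1 to 3 gave values of 106 to 330 CPM, those of GIF-DTR 228 to 758 CPM and those of GIF/ATP4B-DTR 102 to 286 CPM. The 5 smooth muscle markers were at 26.2 CPM or more in every sample, and of the 8 fibroblast markers Lum was near 0 in control 1 (0.0898 CPM). The part of these lists in the endothelial differences was not tested.

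**Figure D2:**
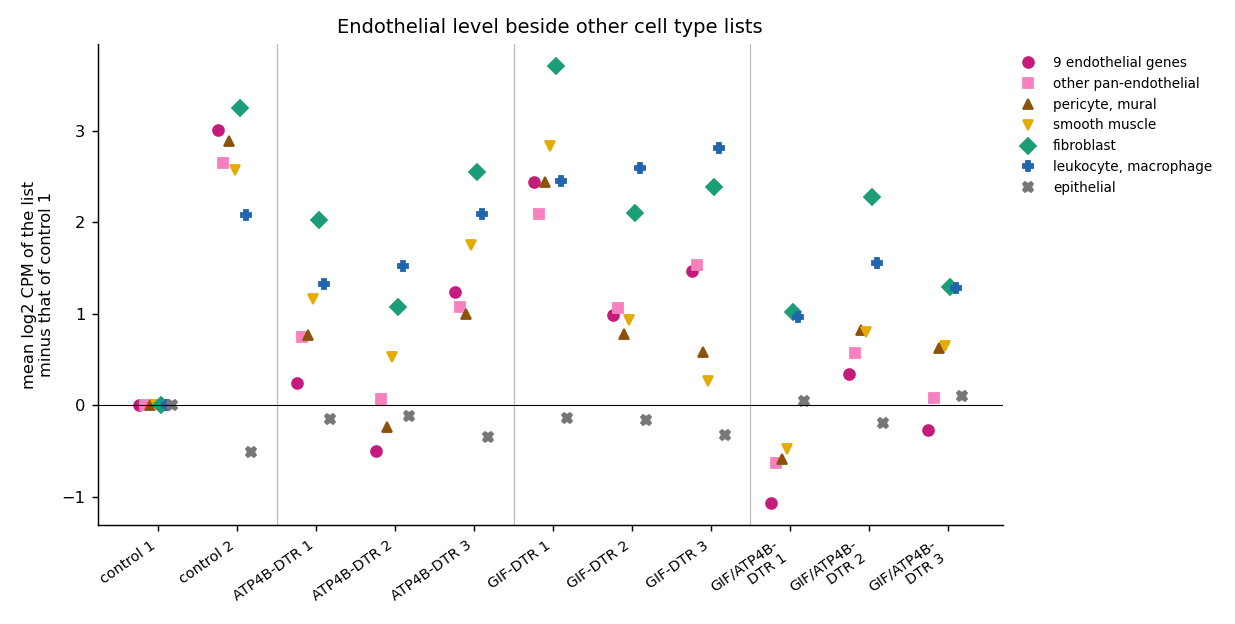
Mean log2 CPM of each gene list in each sample, as the difference from control 1, which is at 0 by construction. Control 2 and GIF-DTR 1 lie high for the endothelial, mural, smooth muscle and fibroblast lists together, while the epithelial list stays near 0.

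Pecam1 and Cdh5 encode adhesion proteins of the junctions between endothelial cells, PECAM-1 (CD31) and VE-cadherin. Pecam1 (ENSMUSG00000020717.19, chr11:106654217-106750628, minus strand, mm10) was 2.92 CPM for control 1 and 29.1 CPM for control 2. In order, the ATP4B-DTR samples had 6.52, 3.25 and 5.47 CPM, the GIF-DTR samples 16.7, 5.66 and 7.38 CPM and the GIF/ATP4B-DTR samples 3.43, 5.26 and 3.24 CPM. Every line sample was above control 1 and below control 2, so the groups overlap. The control mean was 16 ± 18.5 CPM (SD, n = 2), and the line means (SD, n = 3 each) were 5.08 ± 1.67 for ATP4B-DTR, 9.9 ± 5.91 for GIF-DTR and 3.98 ± 1.11 for GIF/ATP4B-DTR. Counts of Pecam1 were fractional in all 11 samples and those of Flt1 in 10, so both levels depend on how shared reads were split. Vegfa, Vwf and Tie1 had fractional counts in 4, 3 and 2 samples.

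Cdh5 (ENSMUSG00000031871.9, chr8:104101625-104144511, plus strand) was 0.629 and 8.70 CPM in the controls, from 14 and 157 counts. Among the lines, the ATP4B-DTR samples had 1.16, 0.614 and 3.36 CPM, the GIF-DTR samples 6.67, 2.99 and 4.25 CPM and the GIF/ATP4B-DTR samples 0.121, 1.75 and 1.32 CPM. The 3 GIF-DTR samples lay between the controls, and the lowest value of all was GIF/ATP4B-DTR 1 with 3 counts. Neither junction gene passed in edgeR against control in any line. DESeq2 called Pecam1 in GIF/ATP4B-DTR (log2 change −2.04, DESeq2 adjusted p = 0.0135). The log2 changes in GIF/ATP4B-DTR were −2.01 ± 0.78 for Pecam1 (SE, edgeR adjusted p = 0.0769) and −2.12 ± 1.11 for Cdh5 (edgeR adjusted p = 0.166). In GIF-DTR the estimate for Cdh5 was −0.00 (edgeR adjusted p = 0.999), between a control mean of 4.67 ± 5.71 CPM (SD, n = 2) and a line mean of 4.63 ± 1.87 CPM (SD, n = 3).

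Kdr and Flt1 had the largest falls among the 9 genes in GIF/ATP4B-DTR. The upstream sequences of both receptor genes and of their ligand are shown because the values of this ligand and its 2 receptors are compared below. They are the bases just before the gene's annotated exons, from RefSeq (GRCm38.p6, the assembly of mm10), 5′ to 3′ on the gene's strand. Capitals mark GGAA or its complement TTCC, the core of ETS factor sites, in Kdr and Flt1, and GGGCGG or its complement CCGCCC, the GC box, in Vegfa. Neither motif is confined to the genes in which it is marked, and the counts follow the sequences.
Kdr, chr5:75978459-75978705, minus strand: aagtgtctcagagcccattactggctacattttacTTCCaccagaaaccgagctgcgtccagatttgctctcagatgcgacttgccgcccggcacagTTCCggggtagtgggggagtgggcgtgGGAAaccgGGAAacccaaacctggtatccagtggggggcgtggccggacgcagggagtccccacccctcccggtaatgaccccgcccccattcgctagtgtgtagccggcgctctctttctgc
Flt1, chr5:147726012-147726261, minus strand: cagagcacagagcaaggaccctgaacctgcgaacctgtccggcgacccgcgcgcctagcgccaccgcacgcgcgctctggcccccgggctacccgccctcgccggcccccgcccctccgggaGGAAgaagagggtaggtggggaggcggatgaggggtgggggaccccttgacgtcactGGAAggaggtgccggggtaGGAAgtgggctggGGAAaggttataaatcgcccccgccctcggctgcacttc
Vegfa, chr17:46032378-46032627, minus strand: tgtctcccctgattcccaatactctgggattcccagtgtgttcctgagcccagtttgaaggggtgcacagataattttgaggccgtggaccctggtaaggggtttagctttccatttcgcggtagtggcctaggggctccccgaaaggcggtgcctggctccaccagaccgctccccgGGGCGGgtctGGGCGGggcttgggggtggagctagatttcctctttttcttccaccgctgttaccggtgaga
Windows of 250 bases were searched on both strands for GGAA, for the GC box GGGCGG and for ACGTG, the core of hypoxia response elements. GGAA occurred 4 times in Kdr and in Flt1, and at least once in 93.4% of 32851 windows of the same length, with a median of 3 matches. GGGCGG occurred 2 times in Kdr, 3 times in Flt1 and 2 times in Vegfa, and at least once in 32.7% of windows. In the windows of Emcn, Tek and Tie1 GGGCGG was not found and GGAA was found 4, 2 and 7 times. The printed Vegfa window held 6 matches of GGAA, more than that of Kdr or of Flt1. In the Tie1 window 212 of the 250 bases were annotated exon. ACGTG, present in 16.6% of windows, was not found in the windows printed and was found 1 time in a second Vegfa window, chr17:46025164-46025413 on the minus strand. That second window lies inside the Vegfa gene, and 218 of its 250 bases were annotated exon.

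Kdr (ENSMUSG00000062960.10, chr5:75932827-75978458, minus strand) encodes VEGFR2, the main signalling receptor of VEGF-A. It was 1.48 and 16.1 CPM in the controls, from 33 and 290 counts. The ATP4B-DTR samples had 0.978, 0.790 and 3.69 CPM, the GIF-DTR samples 7.66, 3.34 and 4.28 CPM and the GIF/ATP4B-DTR samples 0.645, 1.62 and 0.677 CPM. One GIF/ATP4B-DTR sample lay just above control 1, so these groups overlap, while the 3 GIF-DTR samples lay between the controls. Kdr fell by 3.16 ± 0.95 on the log2 scale in GIF/ATP4B-DTR (SE, edgeR adjusted p = 0.0269), from 8.78 ± 10.3 CPM (SD, n = 2) to 0.982 ± 0.556 CPM (SD, n = 3). The call was lost when control 2 was left out, at a log2 change of −0.60, when GIF/ATP4B-DTR 1 or 3 was left out, when only these 2 groups were fitted (edgeR adjusted p = 0.0686), and with no filter on low counts (0.0679).

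Flt1 (ENSMUSG00000029648.13, chr5:147561604-147726011, minus strand) encodes VEGFR1, which binds VEGF-A tightly and also exists in a soluble form that traps it. It was 1.93 and 21.1 CPM in the controls, from 43 and 381 counts. In order, the ATP4B-DTR samples had 0.791, 0.746 and 3.73 CPM, the GIF-DTR samples 8.99, 3.11 and 4.6 CPM and the GIF/ATP4B-DTR samples 0.363, 1.03 and 0.926 CPM. All 3 GIF/ATP4B-DTR samples lay below both controls, with 9, 24 and 26 counts. Flt1 fell by 3.89 ± 1.02 on the log2 scale in GIF/ATP4B-DTR (SE, edgeR adjusted p = 0.0161), from 11.5 ± 13.6 CPM (SD, n = 2) to 0.772 ± 0.357 CPM (SD, n = 3). Without control 2 the log2 change was −1.32 and did not pass (edgeR adjusted p = 0.354), and without GIF/ATP4B-DTR 1 it also missed the threshold (edgeR adjusted p = 0.0545). In ATP4B-DTR the log2 changes were −2.26 ± 0.91 for Kdr (edgeR adjusted p = 0.108) and −2.70 ± 0.97 for Flt1 (edgeR adjusted p = 0.0764), and neither passed in edgeR.

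The share of Kdr and Flt1 in the endothelial counts depended on which genes it was set against. Of the counts of Kdr, Flt1, Cdh5, Tek, Tie1 and Emcn together, Kdr and Flt1 gave 57.6% in control 1 (exact 95% binomial interval 48.7 to 66.1%) and 58.1% in control 2 (55.2 to 61.0%). Among the lines, the ATP4B-DTR samples had shares of 32.2, 42.2 and 46.0%, the GIF-DTR samples 48.3, 47.8 and 48.8% and the GIF/ATP4B-DTR samples 41.7, 34.8 and 31.0%, so that all 9 line samples lay below both controls. The widest interval was that of GIF/ATP4B-DTR 1, 29.1 to 55.1% from 60 counts. Over the counts of all 9 genes the share was 15.0% in control 1 (12 to 18.4%) and 26.4% in control 2 (24.7 to 28.2%). On that base the shares of ATP4B-DTR were 8.24, 11.6 and 20.3%, those of GIF-DTR 17.6, 18.3 and 18.2% and those of the combined line 12.3, 12.9 and 11.9%. With all 9 genes, 5 line samples lay below both controls and 4 lay between them, the 3 GIF-DTR samples and ATP4B-DTR 3. The intervals cover counting error only, and both measures were chosen after the values were seen, so no test is given. Kdr and Flt1 had the lowest log2 changes of the 6 genes in each line. A lower share among the 6 therefore follows from the choice of genes. Kdr and Flt1 are the longest of the 6 transcripts. Over 14859 genes the change against control had a rank correlation with summed exon length of −0.231 for ATP4B-DTR, −0.250 for GIF-DTR and −0.234 for GIF/ATP4B-DTR, where genes are not independent replicates. The mean log2 change of the 2 receptors minus that of the 4 other genes was −0.90, −0.52 and −1.31 in these lines, and −0.72, −0.30 and −1.03 with the length trend removed. The sign before that removal follows from the same choice of genes.

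**Figure D3:**
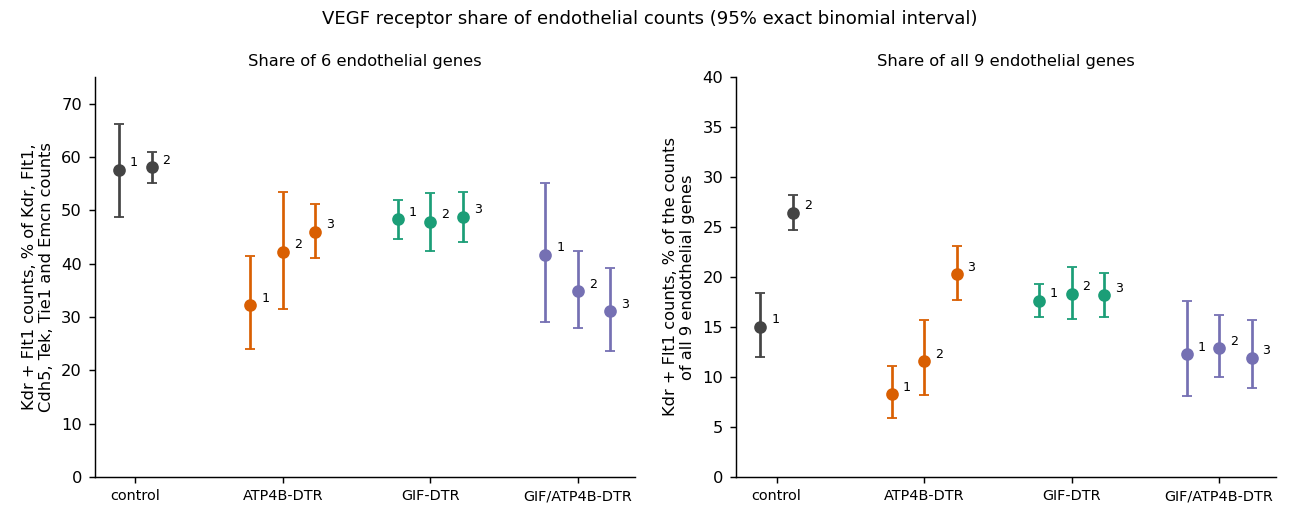
Counts of Kdr and Flt1 as a percentage of the counts of Kdr, Flt1, Cdh5, Tek, Tie1 and Emcn (left) or of all 9 endothelial genes (right) in each sample, with exact 95% binomial intervals. The controls are at 57.6 and 58.1%, and the 9 line samples are between 31.0 and 48.8% on the left, and on the right, with all 9 endothelial genes counted, 4 line samples lie between the controls at 15.0 and 26.4%. Kdr and Flt1 had the lowest log2 changes of the genes on the left, so a lower share there follows from their choice.

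Tek and Tie1 encode the angiopoietin receptor TIE2 and its co-receptor. Tek (ENSMUSG00000006386.15, chr4:94739289-94874976, plus strand) was 1.03 and 5.99 CPM in the controls. The ATP4B-DTR samples had 0.931, 0.0878 and 1.99 CPM, the GIF-DTR samples 3.55, 1.30 and 2.06 CPM and the GIF/ATP4B-DTR samples 0.807, 1.07 and 1.32 CPM. ATP4B-DTR 2 had 2 counts of Tek, under the floor. The GIF-DTR samples all lay between the controls, and each line overlapped the controls. Tie1 (ENSMUSG00000033191.14, chr4:118471191-118490061, minus strand) was 0.494 and 8.09 CPM in the 2 controls. The values of the 3 ATP4B-DTR samples were 1.02, 1.01 and 1.78 CPM, those of GIF-DTR 4.21, 1.93 and 1.67 CPM and those of GIF/ATP4B-DTR 0.323, 1.54 and 0.677 CPM. Tie1 had the widest gap between the controls of the 9 genes as a ratio (16.4-fold), though not in CPM. In GIF/ATP4B-DTR the log2 changes were −1.71 ± 0.91 for Tek (SE, edgeR adjusted p = 0.171) and −2.34 ± 0.92 for Tie1 (edgeR adjusted p = 0.0737), and neither passed in edgeR in any line. DESeq2 called Tie1 in GIF/ATP4B-DTR (DESeq2 adjusted p = 0.0297).

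Emcn encodes endomucin, a sialomucin of capillary and venous endothelium. Emcn (ENSMUSG00000054690.17, chr3:137341067-137432185, plus strand) was 0.359 and 4.05 CPM in the 2 controls. For the 3 ATP4B-DTR samples the values were 0.605, 0.395 and 1.57 CPM, those of GIF-DTR 3.41, 0.826 and 1.35 CPM and those of GIF/ATP4B-DTR 0.161, 0.599 and 0.249 CPM. GIF/ATP4B-DTR 2 lay above control 1 and its 2 companions below it. The log2 change in GIF/ATP4B-DTR was −2.69 ± 0.99 (SE, edgeR adjusted p = 0.057), short of the threshold, while DESeq2 called it (DESeq2 adjusted p = 0.0222). Vwf encodes von Willebrand factor, which endothelium stores and megakaryocytes also make. Vwf (ENSMUSG00000001930.17, chr6:125546774-125686679, plus strand) was 0.988 and 5.16 CPM in the 2 controls. ATP4B-DTR 1 to 3 gave values of 3.44, 1.54 and 2.90 CPM, those of GIF-DTR 6.76, 1.81 and 3.69 CPM and those of GIF/ATP4B-DTR 0.968, 1.37 and 0.855 CPM. GIF-DTR 1 was its highest sample, and the log2 changes were −0.22 ± 0.67 in ATP4B-DTR (edgeR adjusted p = 0.845) and −1.52 ± 0.68 in GIF/ATP4B-DTR (edgeR adjusted p = 0.107). In GIF-DTR the estimate was above 0, at 0.42 ± 0.68 (edgeR adjusted p = 0.730). Of the platelet markers, Ppbp was at or near 0 in every sample, at most 0.0473 CPM, and Pf4 was between 0.0449 and 1.83 CPM. Of the 5 listed, 3 were tested, and Itga2b alone passed, beside 9.39%, 6.82% and 15.4% of all tested genes called lower in ATP4B-DTR, GIF-DTR and the combined line. Pf4 did not pass in any line, with log2 changes of −0.0035, 1.01 and 0.39 in that order, nor did Gp9, with −0.61, −0.22 and −0.70. Itga2b, an integrin subunit of platelets and megakaryocytes, was 3.73 and 3.99 CPM in the controls and 1.05 to 1.97 CPM in the lines, and fell in all 3 lines, by log2 changes of −1.45, −1.53 and −1.33 in the order ATP4B-DTR, GIF-DTR and combined (edgeR adjusted p = 0.0173, 0.0181 and 0.0161). Each of these calls was lost without control 2, the first also without control 1 or ATP4B-DTR 2, and the second also without control 1 or GIF-DTR 3.

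Plvap encodes the protein that forms the diaphragms of fenestrae and caveolae in capillary endothelium. Plvap (ENSMUSG00000034845.6, chr8:71497765-71511752, minus strand) was 12.9 and 42.6 CPM in the controls, the smallest gap of the 9 genes as a ratio (3.30-fold), though not in CPM. In order, the ATP4B-DTR samples had 6.01, 4.87 and 12.1 CPM, the GIF-DTR samples 36.8, 14.3 and 19.7 CPM and the GIF/ATP4B-DTR samples 1.41, 6.37 and 4.17 CPM. All ATP4B-DTR and GIF/ATP4B-DTR samples lay below both controls, and all GIF-DTR samples lay between them. Plvap fell by 2.80 ± 0.72 on the log2 scale in GIF/ATP4B-DTR (SE, edgeR adjusted p = 0.0163), from 27.8 ± 21 CPM (SD, n = 2) to 3.98 ± 2.48 CPM (SD, n = 3). Without control 2 the change was −1.70 and did not pass (edgeR adjusted p = 0.149), nor did it when only these 2 groups were fitted (edgeR adjusted p = 0.0664). In ATP4B-DTR the log2 change was −1.85 ± 0.70 and did not pass (edgeR adjusted p = 0.0931).

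Per kilobase of exon, Plvap was the most abundant of the 9 transcripts in every group, with a mean of 14 CPM per kilobase in control, then 3.85, 11.9 and 2.00 for ATP4B-DTR, GIF-DTR and the 2 combined. Pecam1 was second in each group, at 2.57, 0.815, 1.59 and 0.638 CPM per kilobase in the same order. Vwf was the lowest in control, at 0.191 CPM per kilobase, and Flt1 was the lowest in GIF/ATP4B-DTR, at 0.0572 CPM per kilobase. Between these, control values ran from 0.407 (Emcn) through 0.745 (Tek), 0.854 (Flt1), 0.873 (Tie1) and 0.972 (Kdr) to 1.11 CPM per kilobase (Cdh5), steps far smaller than the gap between the controls. Vegfa was at 16.6, 11.4, 12.6 and 9.74 CPM per kilobase.

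Counted over the 9 genes, 3 fell in GIF/ATP4B-DTR (Flt1, Kdr and Plvap), against 15.4% of all tested genes called lower and 18.2% called higher in that line. The median log2 change of the 9 genes was −2.34, beside −0.04 over all tested genes. DESeq2 called 6 of the 9, with Pecam1, Tie1 and Emcn added to those 3, and 38.5% of all genes in that comparison. In edgeR 44.5% of all tested genes had an unadjusted p under 0.05, beside 7 of the 9. In ATP4B-DTR none of the 9 passed in edgeR, where 9.39% of tested genes were called lower and 12.2% higher. Of the 9 genes, 3 had an unadjusted p under 0.05 in that line (Kdr, Flt1 and Plvap), where 34.8% of all tested genes did. DESeq2 called 2 (Kdr and Flt1) and 26.7% of all genes, so that both counts lay near the share over all genes. The median log2 change of the 9 genes was −1.74 in ATP4B-DTR. In GIF-DTR none of the 9 passed in edgeR, against a background of 6.82% called lower and 9.97% higher, and the median log2 change was −0.60. None of the 9 had an unadjusted p under 0.05 in that line and DESeq2 called none, beside 31.4% and 23.6% of all genes.

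The 3 comparisons share the 2 controls, and each depended on which control was used. Against control 2 alone, 4 of the 9 genes fell in ATP4B-DTR (Pecam1, Kdr, Flt1 and Tie1), 8 in GIF/ATP4B-DTR (all but Tek) and none in GIF-DTR, with median log2 changes of −2.52, −3.26 and −1.38. In the same fits 5.38%, 12.8% and 2.11% of all 15534 tested genes were called lower in ATP4B-DTR, GIF/ATP4B-DTR and GIF-DTR, and 8.43%, 15.6% and 5.2% higher. Against control 1 alone none of the 9 passed in any line, and the medians in the same order were 0.79, 0.04 and 1.77. There, of 15461 tested genes, 5%, 9.68% and 2.92% were called lower and 3.51%, 8.91% and 2.72% higher. The remaining control was assumed to vary like the other groups in these fits. Flt1, Kdr and Plvap were below 0 in GIF/ATP4B-DTR against either control alone, as was Emcn at −0.11 against control 1. Among the samples with Ddx3y of at least 1 CPM, which leave GIF-DTR out, 1 of the 9 genes passed in GIF/ATP4B-DTR, Flt1, with a log2 change of −3.89 (edgeR adjusted p = 0.0466). The same gene alone passed when only GIF/ATP4B-DTR and control were fitted.

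**Figure D4:**
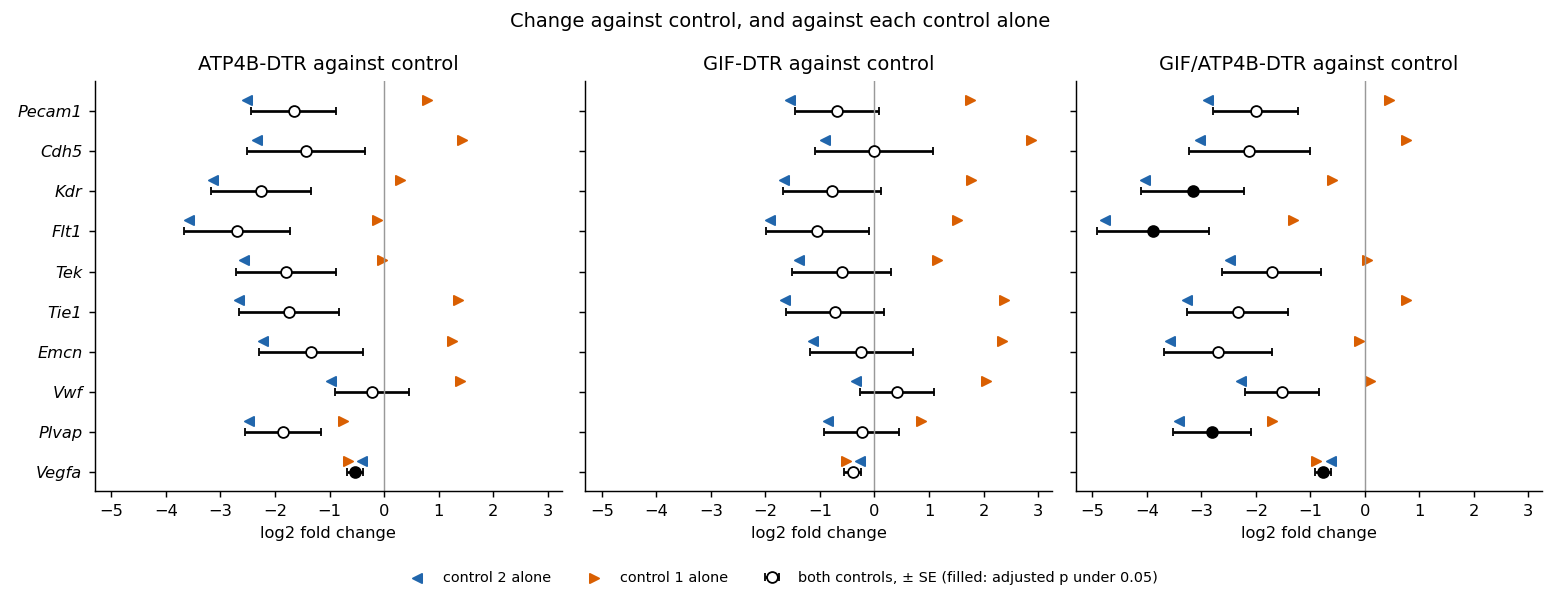
Log2 change of each gene in each line against control, from both controls (circles, ± SE, filled where the edgeR adjusted p is under 0.05) and from control 1 or control 2 alone (triangles). The triangles lie on opposite sides of 0 for 6, 9 and 5 of the 9 endothelial genes from left to right, and both lie below 0 for Vegfa in all 3 lines.

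The lines were also compared with each other, which leaves the controls out of the difference. GIF-DTR lay above ATP4B-DTR for all 9 endothelial genes, by 0.63 to 1.65 on the log2 scale, but none passed in edgeR (adjusted p between 0.448 and 0.795), against 0.49% of all tested genes. Of the 9 genes, only Plvap had an unadjusted p under 0.05, and DESeq2 called none, beside 9.81% and 2.63% of all genes. Genes of other cell types lay above ATP4B-DTR as well, with 7 of 7 mural genes (median log2 difference 0.93), 5 of 5 smooth muscle genes (0.47), 8 of 8 fibroblast genes (0.93), 8 of 8 leukocyte and macrophage genes (1.08) and 5 of 5 erythroid genes (1.62), beside a median of 1.19 for the 9 endothelial genes. None of these passed in edgeR, and 4 of the erythroid genes had an unadjusted p under 0.05, with 3 called by DESeq2. Among the 5 samples low in Ddx3y the 9 differences were 0.86 (Vwf) to 1.45 (Plvap) on the log2 scale, again with no call in edgeR. Between GIF/ATP4B-DTR and ATP4B-DTR none passed in edgeR, none had an unadjusted p under 0.05 and DESeq2 called none, in a comparison where 0% of tested genes passed in edgeR, 10.4% had an unadjusted p under 0.05 and 2.06% were called by DESeq2. GIF/ATP4B-DTR lay below GIF-DTR for all 9 genes, with a median log2 change of −2.12 and sample values that did not overlap for every gene but Tek, as for 14.2% of all tested genes in that direction. None passed in edgeR, where 2.53% of all tested genes did. The smallest adjusted p was that of Plvap, at a log2 change of −2.56 ± 0.67 (SE, edgeR adjusted p = 0.0989). Of the 9 genes, 5 had an unadjusted p under 0.05, and DESeq2 called 4, Kdr, Flt1, Vwf and Plvap, beside 18% and 7.17% of all genes. All 22 other pan-endothelial genes also lay below GIF-DTR (median −1.82). Of these 12 had an unadjusted p under 0.05, but DESeq2 called only 1. Other lists lay below GIF-DTR as well, with 6 of 7 mural genes (median −1.30), 5 of 5 smooth muscle genes (−1.37), 8 of 8 fibroblast genes (−1.32), 8 of 8 leukocyte and macrophage genes (−1.64) and 5 of 5 erythroid genes (−1.37). Of the leukocyte and macrophage genes 6 had an unadjusted p under 0.05 and DESeq2 called 3. The part of these cell types in the differences between lines was not tested. When only these 2 groups were fitted, Flt1 passed (log2 change −2.87, edgeR adjusted p = 0.0364). A test of whether the combined line departed from the sum of the changes in the other two passed for none of the 10 genes (edgeR adjusted p between 0.406 and 0.980).

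Vegfa (ENSMUSG00000023951.17, chr17:46016993-46032369, minus strand) did not follow the endothelial genes between the controls: control 1 had 77.4 CPM and control 2 had 64.6 CPM. Among the lines, the ATP4B-DTR samples had 49.5, 51.7 and 45.9 CPM, the GIF-DTR samples 59.4, 53.2 and 48.9 CPM and the GIF/ATP4B-DTR samples 34.1, 43.4 and 47.6 CPM. All 9 line samples lay below both controls, with between 846 and 1723 counts per sample behind these values. Vegfa fell by 0.77 ± 0.15 on the log2 scale in GIF/ATP4B-DTR (SE, edgeR adjusted p = 0.00307), from 71 ± 9 CPM (SD, n = 2) to 41.7 ± 6.91 CPM (SD, n = 3), and passed in 21 of 21 alternatives. It fell by 0.53 ± 0.15 in ATP4B-DTR (SE, edgeR adjusted p = 0.0298). That call was lost when either control or any ATP4B-DTR sample was left out, with log2 changes of −0.66 (without control 2) to −0.40 (without control 1), and with the Y-linked level as a covariate (edgeR adjusted p = 0.144). In GIF-DTR the log2 change of −0.40 did not pass (edgeR adjusted p = 0.0995), although the samples did not overlap. No difference between lines passed, with log2 differences of 0.13 for GIF-DTR over ATP4B-DTR (edgeR adjusted p = 0.818), −0.23 for GIF/ATP4B-DTR over ATP4B-DTR (edgeR adjusted p = 0.589) and −0.37 for GIF/ATP4B-DTR over GIF-DTR (edgeR adjusted p = 0.204).

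The counts of the lists that follow stand beside 21.6%, 16.8% and 33.6% of all tested genes called in either direction against control, with the combined line last and ATP4B-DTR first. Among the 7 other VEGF family genes tested, Vegfb fell in ATP4B-DTR, Vegfb and Nrp1 fell in GIF/ATP4B-DTR, and none passed in GIF-DTR. Vegfb, a ligand of VEGFR1, was 56.6 and 55.4 CPM in the 2 controls. The values of the 3 ATP4B-DTR samples were 25, 15.5 and 23.0 CPM, those of GIF-DTR 48.8, 28 and 35 CPM and those of GIF/ATP4B-DTR 11.1, 16.1 and 12.9 CPM. The controls lay close to each other and above every line sample. Vegfb fell by 1.40 ± 0.25 on the log2 scale in ATP4B-DTR (SE, edgeR adjusted p = 0.00319) and by 2.07 ± 0.25 in GIF/ATP4B-DTR (SE, edgeR adjusted p = 0.000205). These calls held in 20 of 20 and 21 of 21 alternatives. Vegfb was also lower in GIF/ATP4B-DTR than in GIF-DTR, by a log2 difference of −1.48 ± 0.23 (SE, edgeR adjusted p = 0.00597). Nrp1, a co-receptor of VEGF-A that other cell types also make, was 1.30 and 11.4 CPM in the controls and 0.891 to 1.01 CPM in GIF/ATP4B-DTR, a log2 change of −2.72 ± 0.84 (SE, edgeR adjusted p = 0.0288). Like the endothelial genes it was high in control 2, without which its log2 change was −0.44 (edgeR adjusted p = 0.754), and it also missed the threshold when any GIF/ATP4B-DTR sample was left out.

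**Figure D5:**
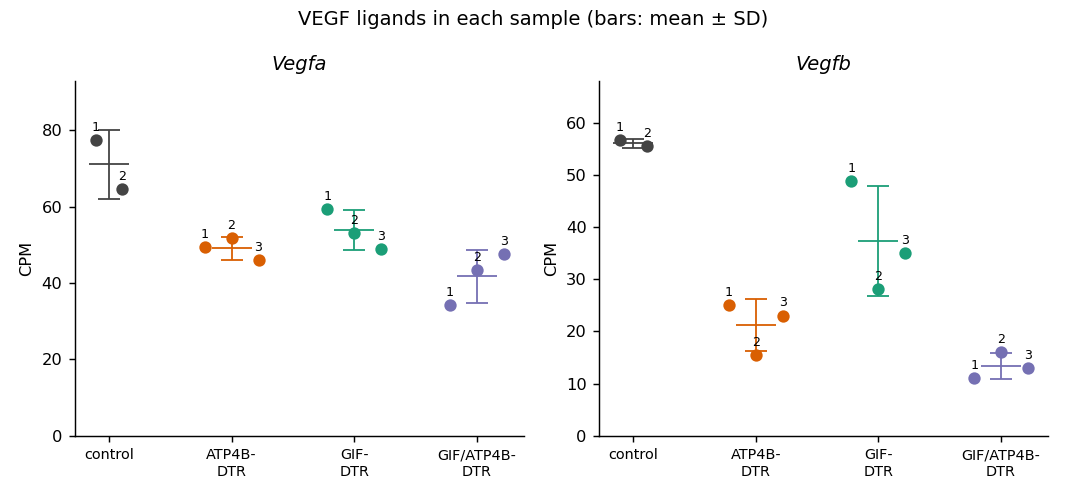
Vegfa and Vegfb in CPM in each sample, numbered within its group, with the group mean and SD as bars. All line samples lie below both controls for each ligand, and Vegfb is between 11.1 and 16.1 CPM in GIF/ATP4B-DTR.

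Of 22 other pan-endothelial genes, 5 fell in GIF/ATP4B-DTR (Adgrl4, Cd34, Ramp2, S1pr1 and Tal1), beside 15.4% of all tested genes called lower, and the median log2 change was −2.20. Leaving out control 1 raised the count of lower genes to 17, with a median of −3.06 and 12.8% of tested genes lower. Leaving out control 2 left none lower and 1 higher, Ecscr, with a median of 0.13 and 9.68% of tested genes lower. Adgrl4, an adhesion receptor of angiogenic endothelium, changed by −3.70 ± 1.00 (SE, edgeR adjusted p = 0.0153), and S1pr1, the sphingosine 1-phosphate receptor of vessels, by −3.44 (edgeR adjusted p = 0.0416). Without control 2 the log2 changes of Adgrl4, S1pr1, Cd34, Ramp2 and Tal1 were −0.60, −0.80, −0.35, −0.30 and −1.72, and the calls were also lost without GIF/ATP4B-DTR 2 for Adgrl4, without GIF/ATP4B-DTR 1 or 3 (or ATP4B-DTR 1, GIF-DTR 1 or 3) for S1pr1, and without any GIF/ATP4B-DTR sample for Cd34 and Ramp2. In ATP4B-DTR, Tal1 fell and Ecscr rose, with a median of −1.42, and in GIF-DTR Tal1 alone passed in edgeR, with a median of −0.19. DESeq2 called 4 and 2 of the 22 in these 2 lines, beside 26.7% and 23.6% of all genes. Without control 2 the 2 medians were 0.87 and 1.97, and without control 1 they were −2.22 and −1.09. Tal1, a transcription factor of blood and endothelium, was 1.12 and 1.66 CPM in the controls and 0.202 to 0.512 CPM in the 9 line samples, and its calls in ATP4B-DTR and GIF-DTR were lost without either control and without any sample of the line concerned. Ecscr, a surface protein of endothelium, ran against the list, at 0.449 and 1.72 CPM in the controls and 1.97 to 3.35 CPM in the lines, and its rise of 1.6 ± 0.50 in ATP4B-DTR (SE, edgeR adjusted p = 0.0398) passed in 10 of 20 alternatives and was 0.92 without control 1 (edgeR adjusted p = 0.177).

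The 13 genes of the angiopoietin, apelin and Notch systems of vessels gave 1 call in each line, which is below these shares. Angpt2, the angiopoietin that opposes TIE2 signalling in many settings, rose in GIF-DTR by 1.63 ± 0.43 (SE, edgeR adjusted p = 0.0258). It was 1.35 and 1.44 CPM in the 2 controls. For the 3 ATP4B-DTR samples the values were 2.28, 3.51 and 3.98 CPM, those of GIF-DTR 2.98, 3.85 and 6.11 CPM and those of GIF/ATP4B-DTR 3.07, 4.06 and 2.24 CPM. Every line sample lay above both controls, though the other two lines did not pass (edgeR adjusted p = 0.0605 for ATP4B-DTR and 0.0537 for GIF/ATP4B-DTR). The call for Angpt2 was lost without control 1, control 2 or GIF-DTR 3. Angptl4 fell in ATP4B-DTR by 2.05 ± 0.48 (SE, edgeR adjusted p = 0.0123), and Notch1 fell in GIF/ATP4B-DTR by 0.73 ± 0.17 (SE, edgeR adjusted p = 0.00742). Notch1 was 35.8 CPM in control 1 and 28.3 CPM in control 2, the reverse of the order of the endothelial genes. The sum of the 13 genes was 0.851-fold in control 2 over control 1, although 9 of them were higher in control 2. Which cells the Notch1 RNA came from was not tested. Angptl4 lost its call without control 2 (edgeR adjusted p = 0.0979), and Notch1 without control 1 (edgeR adjusted p = 0.0767).

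Icam1, an adhesion molecule that inflamed endothelium, leukocytes and epithelium can all make, was the single call among 4 tested genes of venules and inflamed endothelium. It was 1.26 and 4.21 CPM in the 2 controls. ATP4B-DTR 1 to 3 gave values of 5.03, 2.98 and 4.52 CPM, those of GIF-DTR 11.3, 12.4 and 9.88 CPM and those of GIF/ATP4B-DTR 10.4, 11 and 19 CPM. It rose by 2.05 ± 0.46 on the log2 scale in GIF-DTR (SE, edgeR adjusted p = 0.0149) and by 2.31 ± 0.47 in GIF/ATP4B-DTR (SE, edgeR adjusted p = 0.00341). The call in GIF-DTR was lost without control 1 (log2 change 1.41, edgeR adjusted p = 0.0686), and that in GIF/ATP4B-DTR held in 21 of 21 alternatives. The other 3 genes of that list did not pass. None of 6 lymphatic endothelial genes passed in any line in edgeR, where 0, 1 and 2 of them had an unadjusted p under 0.05 in ATP4B-DTR, GIF-DTR and the combined line, and DESeq2 called the same numbers. Over all genes the shares in that order were 34.8%, 31.4% and 44.5% unadjusted in edgeR, and 26.7%, 23.6% and 38.5% in DESeq2. The median of the 6 genes in the combined line was −0.55, with 0.37 without control 2 and −1.10 without control 1.

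None of 7 tested mural, 5 smooth muscle or 8 fibroblast genes passed in any line against control in edgeR. Unadjusted p-values under 0.05 were found only for 1 mural gene in GIF/ATP4B-DTR, where DESeq2 called 2 mural genes and no other gene of these lists. The shares over all genes there were 44.5% unadjusted in edgeR and 38.5% in DESeq2. Their median log2 changes in GIF/ATP4B-DTR were −2.05, −1.40 and −0.80, beside −2.34 for the 9 endothelial genes, and in ATP4B-DTR −1.60, −0.71 and −0.47, beside −1.74. In GIF-DTR the medians were −0.65 for mural, −0.05 for smooth muscle and 0.46 for fibroblast genes, of which 1 of 8 lay below 0, beside −0.60 for the endothelial genes. Without control 2 the medians of the 3 lists were 0.37, 0.46 and 1.63 in GIF/ATP4B-DTR. They were 0.57, 1.15 and 1.82 for ATP4B-DTR and 1.40, 1.71 and 3.02 for GIF-DTR. Without control 1 the same medians were −2.81, −2.19 and −1.67 in GIF/ATP4B-DTR. They were −2.43, −1.48 and −1.28 for ATP4B-DTR and −1.50, −0.80 and −0.22 for GIF-DTR. Of 8 leukocyte and macrophage genes only Ptprc passed, lower in GIF/ATP4B-DTR, and not without control 2 (edgeR adjusted p = 0.232) or GIF/ATP4B-DTR 3 (edgeR adjusted p = 0.0777). The median log2 changes of the 8 were 0.12 in ATP4B-DTR, 1.13 in GIF-DTR, where all 8 lay above 0 and DESeq2 called 2, and −0.22 in GIF/ATP4B-DTR. Without control 2, 5 of the 8 were called higher in GIF-DTR and 2 in each other line, and without control 1, 3 were called lower in GIF/ATP4B-DTR. Among 10 genes of the hypoxia response, Car9 fell in ATP4B-DTR (log2 change −2.05, edgeR adjusted p = 0.0287) and in GIF/ATP4B-DTR (−2.04, edgeR adjusted p = 0.0201), Ndrg1 fell in GIF-DTR (−1.15, edgeR adjusted p = 0.0353), and in GIF/ATP4B-DTR Bnip3 fell (−1.09, edgeR adjusted p = 0.0493) and Ldha rose (0.65, edgeR adjusted p = 0.0301). Each of these 5 calls was lost when single samples were left out: Ldha was 0.35 without control 2, and without control 1 the others were −1.72 and −1.70 (Car9), −0.83 (Ndrg1) and −0.92 (Bnip3).

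The 9 endothelial genes followed each other over the 11 samples. Pearson's r of log2 CPM between a gene and the mean of the 8 others ran from 0.770 (Tek) and 0.847 (Vwf) to 0.968 (Kdr) and 0.980 (Emcn), as a description of samples that share their groups. Outside the lists, the genes most like the 9 were Cxcl12 (r = 0.982), Slfn5 (0.977), Lama4 (0.976), Axl (0.967), Bgn (0.964), Msn (0.957), Col15a1 (0.956) and Ltbp4 (0.956), among 10258 candidates of at least 5 CPM. Cxcl12 is a chemokine, Lama4 encodes a laminin chain of vessel basement membranes, and Bgn encodes a proteoglycan of connective tissue. Cxcl12 was 1.93 CPM in control 1 and 28.1 CPM in control 2. The genes most like Vegfa were Tln2 (0.956), Pde4a (0.954), Egf (0.938), Plekhg5 (0.935) and Retreg1 (0.933). Egf, a growth factor gene, was 131 and 55.3 CPM in the controls and at most 5.06 CPM in the lines, with log2 changes of −6.21, −4.53 and −6.82 against control in the lines in the order used above (edgeR adjusted p = 0.000517, 0.00227 and 0.000161).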

How the data were processed

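The authors deposited 1 table of expected counts for 34866 genes and 11 samples; 30.7% of the nonzero values are fractional. Libraries were made with a stranded poly(A) kit, per the labels' protocols, and the genome build was mm10, per the submitters' processing notes. The aligner and counter are not given in the sources used here. Versioned Ensembl identifiers were matched to symbols and to GENCODE M21 gene models (99.4% had a symbol).

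Expected counts were rounded and tested with the quasi-likelihood test of edgeR 4.0.16 (R 4.3.3; TMM scaling, filterByExpr, all 11 samples, 1 coefficient per group), with Benjamini-Hochberg adjustment over 14889 genes and a threshold of 0.05. 6 comparisons were made. CPM are on the TMM-scaled library size. The common biological coefficient of variation was 26.6%. DESeq2 1.42.0 was an alternative, and the script was tested on simulated data.

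The members and lists were chosen with earlier results of these data known. The rule was to name at most 4 genes per list and comparison, those that passed with the smallest adjusted p, or with the highest mean CPM where none passed. S1pr1 in GIF/ATP4B-DTR, Pf4, Ppbp, Gp9, Lum and the complete smooth muscle list are named beyond it, after their values were seen; the named co-varying genes are the 8 and 5 with the highest r. Promoter windows were found for 6 of the 10 genes.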

Additional observations from a re-analysis of the deposited data

How the results depend on the processing

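With 22 alternatives, the counts of the 9 endothelial genes called moved as follows. ATP4B-DTR against control went from 0 to 2 with DESeq2 and to between 0 and 4 when single samples were left out. GIF/ATP4B-DTR against control went from 3 to 1 when only those 2 groups were fitted, 6 with DESeq2, 1 among samples with Ddx3y of at least 1 CPM, and 0 to 8 when single samples were left out, with 0 without control 2 and 8 without control 1. GIF/ATP4B-DTR against GIF-DTR went from 0 to 1 when only those groups were fitted and to 4 with DESeq2. The fall of Vegfa in ATP4B-DTR lost its call with the Y-linked level as a covariate (−0.52, edgeR adjusted p = 0.144), and ranged from −0.66 to −0.40 when single samples were left out.

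Signs turned when single samples were left out, against control mostly control 2, for Vwf in GIF-DTR control 1 or GIF-DTR 1, and in single cases also ATP4B-DTR 2 (Vwf), GIF-DTR 2 (Cdh5, Emcn and Plvap) or GIF-DTR 3 (Cdh5). In ATP4B-DTR the log2 changes with single samples left out ranged from −2.52 to 0.79 (Pecam1), −2.38 to 1.44 (Cdh5), −3.30 to 0.30 (Kdr), −2.66 to 1.35 (Tie1), −2.22 to 1.25 (Emcn) and −0.97 to 1.40 (Vwf). In GIF-DTR they ranged from −1.56 to 1.75 (Pecam1), −0.91 to 2.87 (Cdh5), −1.66 to 1.77 (Kdr), −1.92 to 1.52 (Flt1), −1.38 to 1.15 (Tek), −1.64 to 2.38 (Tie1), −1.12 to 2.35 (Emcn), −0.34 to 2.04 (Vwf) and −0.85 to 0.86 (Plvap). In GIF/ATP4B-DTR they ranged from −2.87 to 0.44 (Pecam1), −3.02 to 0.75 (Cdh5), −2.48 to 0.042 (Tek), −3.26 to 0.76 (Tie1) and −2.27 to 0.10 (Vwf). Between GIF/ATP4B-DTR and ATP4B-DTR the ranges −1.23 to 0.26 (Cdh5), −1.46 to 0.14 (Kdr), −1.55 to 0.0064 (Flt1) and −0.46 to 1.07 (Tek) turned without ATP4B-DTR 3, or for Tek without ATP4B-DTR 2 or GIF/ATP4B-DTR 3. Vwf in ATP4B-DTR was 0.039 with the Y-linked covariate and 0.079 with the length trend removed, and with that covariate GIF/ATP4B-DTR over ATP4B-DTR was 0.019 (Cdh5), 0.13 (Kdr) and 0.13 (Flt1). The cause was not tested. No paired analysis was possible because the labels name no link between samples of different groups. Depth limits the low values, such as the 2 counts of Tek in ATP4B-DTR 2 and the 3 counts of Cdh5 in GIF/ATP4B-DTR 1.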

Other observations

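The level of the 9 endothelial genes was also set against the level of the fibroblast genes within each sample, a measure chosen after the values were seen and given with no test. The mean log2 CPM of the 9 endothelial genes minus that of the 8 fibroblast genes was −1.18 in control 1 and −1.42 in control 2, although both lists differed severalfold between these samples. The difference was −2.96, −2.75 and −2.49 in ATP4B-DTR, −2.46, −2.30 and −2.10 in GIF-DTR and −3.27, −3.12 and −2.75 in GIF/ATP4B-DTR. All 9 line samples lay below both controls on this scale. The groups overlapped more against the mural genes. The difference was −0.69 and −0.57 in the controls and ran from −1.22 to −0.45 in ATP4B-DTR, from −0.70 to 0.19 in GIF-DTR and from −1.59 to −1.18 in GIF/ATP4B-DTR. The 3 GIF/ATP4B-DTR samples, ATP4B-DTR 1 and 2 and, at −0.70, GIF-DTR 1 lay below both controls, and the other 3 line samples lay above both. Against smooth muscle genes (−5.35 and −4.90 in the controls) 7 line samples lay below both controls, GIF-DTR 2 between them and GIF-DTR 3 above both, at −4.13. Against leukocyte and macrophage genes (−0.26 and 0.68) all 9 lay below both, the highest by a narrow margin at −0.27. Against epithelial genes (−9.73 and −6.21) 6 line samples lay between the controls and 3 below both. The gap to both controls thus depended on the list set against the endothelial genes. Which of the lists moved was not tested.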
